A study of Mus musculus with 24 samples.

Results

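The cyclin-dependent kinase (CDK) inhibitors and the target genes of the transcription factor p53 were followed through bulk RNA sequencing of mouse dental mesenchyme. The set held 10 of the 56748 genes in the read-count table, taken by name. The CDK inhibitors were Cdkn1a (p21), Cdkn1b (p27), Cdkn2a (p16 and p19Arf), Cdkn2b (p15) and Cdkn2c (p18). The p53 targets were Mdm2, Ccng1, Bbc3 (PUMA), Bax and Pmaip1 (NOXA), and Cdkn1a belongs to both families.

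In the GRCm39 build the CDK inhibitor genes lie at chr17:29309950-29319701 (Cdkn1a), chr6:134897364-134902476 (Cdkn1b) and chr4:109518073-109524386 (Cdkn2c), and as neighbours at chr4:89192708-89212890 (Cdkn2a) and chr4:89224536-89229276 (Cdkn2b). The p53 targets lie at chr10:117524780-117546663 (Mdm2), chr11:40639379-40646138 (Ccng1), chr7:16042318-16052130 (Bbc3) and chr7:45111121-45116322 (Bax), and Pmaip1 is on chromosome 18.

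CDK inhibitors stop cells from entering or passing through the division cycle. Members of the Cip/Kip family (Cdkn1a, Cdkn1b, Cdkn1c) bind complexes of cyclins with CDKs, and members of the Ink4 family (Cdkn2a to Cdkn2d) bind the CDK partners of the D-type cyclins. p53 is held low by Mdm2 and Mdm4 and accumulates after DNA damage and other stress. It then raises genes of arrest (Cdkn1a), of its own feedback (Mdm2, Ccng1) and of mitochondrial cell death (Bbc3, Bax, Pmaip1). In the tooth germ, Cdkn1a is known as a gene of the enamel knot, the non-dividing signalling centre of the epithelium, and Cdkn1a also rises when muscle precursors leave the cycle to differentiate.

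The mesenchyme came from mandibular first molar germs of ICR mouse embryos, at the cap stage (E13) and the bell stage (E15), and was freed from the epithelium with dispase II. Whole mesenchyme formed the groups Cap_W and Bell_W. Germs cut by needle into a lingual (tongue-side) and a buccal (cheek-side) part gave Cap_L, Cap_B, Bell_L and Bell_B. The groups Cap_L_2D and Cap_B_2D were cap-stage lingual and buccal parts kept apart in vitro for 2 days, which is also the time from the cap to the bell stage. The labels name no transgene and no drug, and each group had 3 libraries from pooled embryos of several dams. The methods speak of triplicates and also of a pair of biological replicates, which leaves unclear whether the 3 libraries of a group were separate pools of animals, so p-values measure the spread between libraries, which may be technical.

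The 24 libraries held 20581720 to 39266497 counts. Library 1 of Cap_W stood apart, with 7.95% mitochondrial counts against 2.24 to 4.05% in all the others and 5.39% of counts in the ribosomal gene Rn18s-rs5 against at most 1.43%. The tests on whole mesenchyme are therefore also given without it. All 8 markers of dental mesenchyme (Prrx1, Msx1, Pax9, Twist1, Pdgfra, Lhx6, Barx1, Col1a1) were above the level of 3 counts in every group, with summed levels between 4025 and 11980 counts per 1000000 counts (CPM). RNA of other cells was also present, and the summed skeletal muscle markers ran from 7.49 CPM in Bell_W to 4159 CPM in Cap_B_2D. In bulk RNA, fewer cells of a type and less RNA per cell cannot be told apart.

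p53 binds DNA as a tetramer through the p53 consensus element, 2 half-sites of 10 bases each. Elements with no spacer, with the C and G cores of both half-sites intact and with at most 1 mismatch elsewhere were searched on both strands, within 3000 bases on either side of the start of the canonical transcript (GENCODE annotation, GRCm39). Such an element stood near 3 of the 10 genes, Cdkn1a, Cdkn2b and Ccng1, and near 0.897% of the 21627 protein-coding genes scanned. With 2 mismatches allowed, Bax and Pmaip1 were added, and 5.86% of all scanned genes then held a match. The matches below are shown because direct p53 targets are known for elements of this kind near their starts. Each is written 5′ to 3′ on the strand of the gene, with the 20-base element in capitals and 5 flanking bases on each side in lower case.
Cdkn1a, chr17:29309897-29309926, plus strand, 2836 bases upstream of the start, 1 mismatch: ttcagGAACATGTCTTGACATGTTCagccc
Cdkn2b, chr4:89226632-89226661, minus strand, 2620 bases downstream of the start in an intron, 1 mismatch: tacttAGACATGTCCGGTCTTGCTCagcca
Ccng1, chr11:40646284-40646313, minus strand, 170 bases upstream of the start, 1 mismatch: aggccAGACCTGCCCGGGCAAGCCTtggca
Ccng1, chr11:40645758-40645787, minus strand, 356 bases downstream of the start in an intron, 1 mismatch: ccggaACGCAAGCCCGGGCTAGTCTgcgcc
Bax, chr7:45115993-45116022, minus strand, 308 bases downstream of the start in an exon that holds untranslated sequence, 2 mismatches: cccccGGGCAGGCCCGGGCTTGTCGctggc
A match is a run of letters and not a measured binding site, and the absence of one near Mdm2, Bbc3, Cdkn1b, Cdkn2a or Cdkn2c says only that these letters were not in that window.

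Levels are given as CPM normalized over the 24 libraries. A gene was called changed at an adjusted p under 0.05 (edgeR's quasi-likelihood test, Benjamini-Hochberg over all genes tested) with a log2 fold change beyond 0.5 in either direction. Of the 10 genes, 9 had enough counts for a test over all groups, and all 9 differed among the 8 groups, as did 83.1% of all genes tested. The exception was Cdkn2a, which was near the limit of detection throughout.

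**Figure D1:**
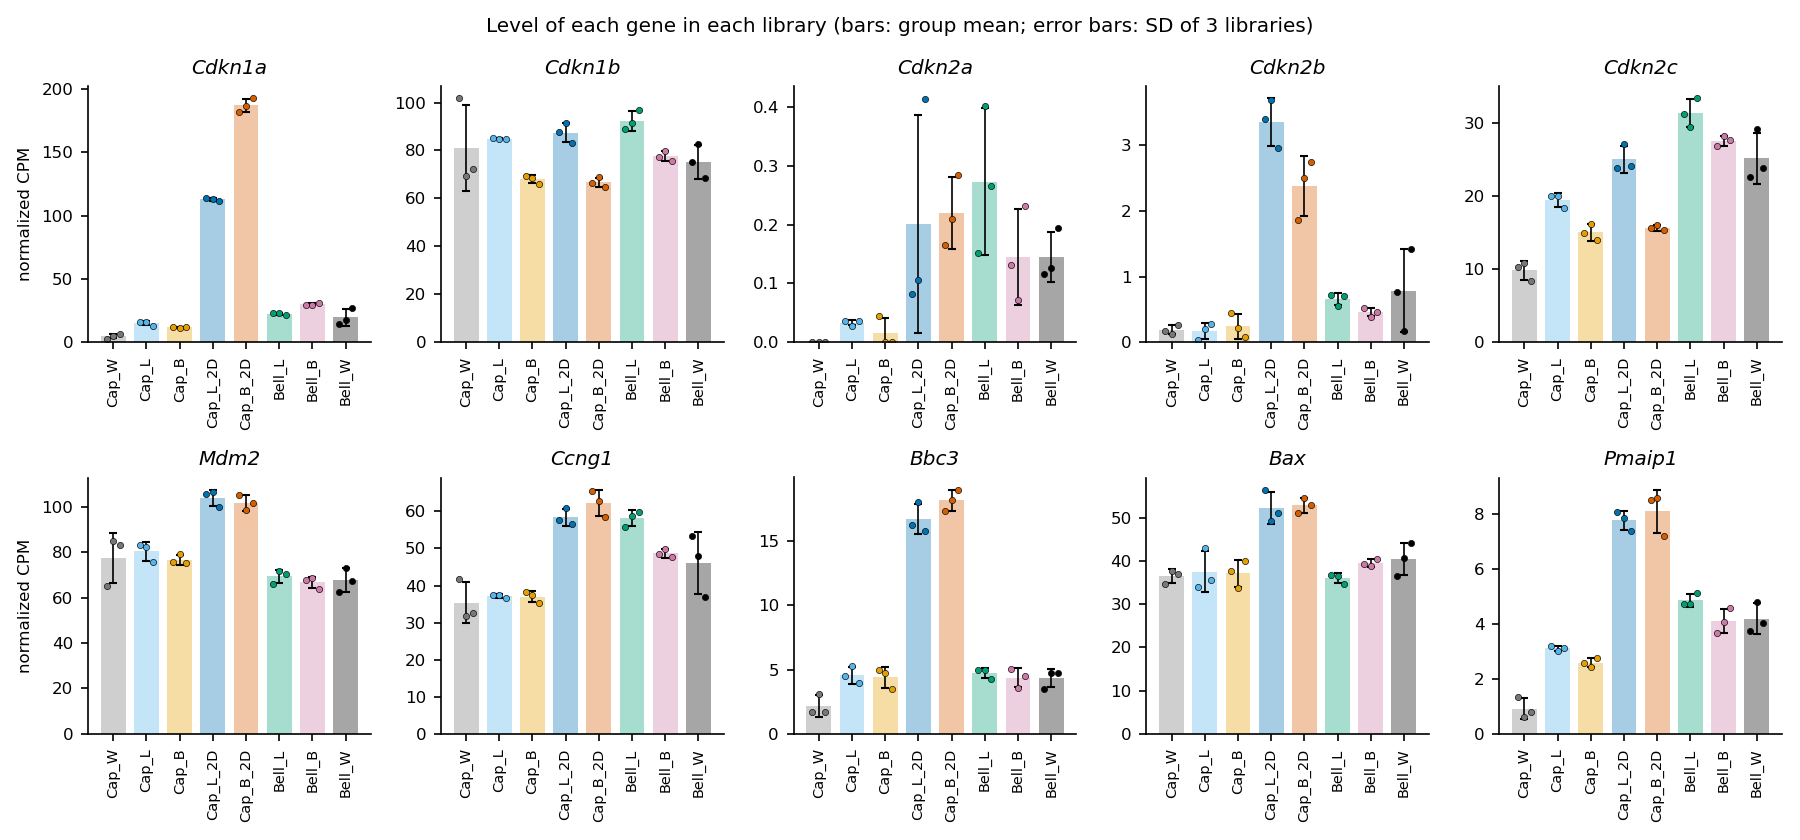
Normalized CPM (linear axes from 0) of the 10 genes in the 24 libraries, 1 panel a gene and 1 colour a group; points are libraries, bars are group means and error bars are SDs of 3 libraries. Cdkn1a, Cdkn2b, Bbc3 and Pmaip1 were highest in the cultured groups, with Cdkn1a at 187 CPM in Cap_B_2D against 11.7 CPM in Cap_B.

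Culture of the isolated parts was accompanied by higher levels of most of the set. After lingual culture 5 of the 9 tested genes rose, where 19.6% of all genes rose, 15.9% fell and 35.4% were called in either direction. After buccal culture the count was again 5 of 9, against a background of 17.9% rising, 16.6% falling and 34.5% called. None of the 9 fell by edgeR on either side, and none was lower at an unadjusted p under 0.05 or called lower by DESeq2. Libraries of cultured and fresh parts did not overlap for 8 of the 9 genes on the lingual side (67.5% of all genes) and 7 of the 9 on the buccal side (69% of all genes). The genes that rose were Cdkn1a, Cdkn2b, Ccng1, Bbc3 and Pmaip1 on each side. The median log2 fold change of the 9 genes was 0.66 for lingual and 0.73 for buccal culture, beside -0.03 and -0.02 for all genes. DESeq2 called 5 of the genes after lingual and 6 after buccal culture.

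Cdkn1a, the inhibitor of CDK complexes that p53 raises during arrest, was at 15.7, 16.0 and 13.1 CPM in Cap_L and at 114, 113 and 112 CPM in Cap_L_2D. In Cap_B it was at 12.0, 11.3 and 11.8 CPM, and in Cap_B_2D at 182, 187 and 193 CPM. The cultured libraries were all far above the fresh ones, and the replicates of each group lay close together. The increase was 7.57-fold in the lingual part (log2 fold change 2.92, SE 0.06, adjusted p = 5.72e-23) and 15.7-fold in the buccal part (3.97, SE 0.05, adjusted p = 1.82e-35).

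Per kilobase of exon, the scale on which genes can be set beside each other, Cdkn1a stood at 4.20 ± 0.45 CPM per kb (SD, n = 3) in Cap_L, below Bax, Cdkn1b, Mdm2, Ccng1 and Cdkn2c. In Cap_B_2D it reached 52.6 ± 1.53 CPM per kb, above Bax at 33.6 ± 1.11, the next of the set. In Cap_L_2D the level of Cdkn1a was 31.7 ± 0.29 CPM per kb, which lay within the spread of Bax at 33.2 ± 2.40.

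Cdkn2b, the Ink4 inhibitor known as a target of TGF-beta signalling, was almost silent before culture, with 1, 7 and 8 counts in the Cap_L libraries and 10, 5 and 2 counts in Cap_B. After culture it was at 3.41, 3.69 and 2.96 CPM in Cap_L_2D and 1.87, 2.51 and 2.75 CPM in Cap_B_2D. The increase was 18.9-fold in the lingual part (95% interval 12.6 to 28.2) and 9.64-fold in the buccal part (6.25 to 14.9), with few counts in the fresh parts behind these wide intervals. Cdkn2b remained a weakly expressed gene, since 3.35 CPM was its highest group mean.

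The death genes of the set did not move as 1 block. Bbc3, the BH3-only protein that frees the executioners of the mitochondrial pathway, rose from 4.47, 5.26 and 3.95 CPM in Cap_L to 16.3, 18.0 and 15.8 CPM in Cap_L_2D. On the buccal side Bbc3 was at 4.96, 4.73 and 3.46 CPM before and 17.3, 18.2 and 19.0 CPM after culture. Cultured and fresh libraries did not overlap, and the increases were 3.64-fold (log2 fold change 1.86, SE 0.10) and 4.12-fold (2.04, SE 0.10).

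Pmaip1, another BH3-only gene, was at 3.18, 3.00 and 3.14 CPM in Cap_L and 8.09, 7.86 and 7.41 CPM in Cap_L_2D. In Cap_B it was at 2.57, 2.43 and 2.76 CPM, and in Cap_B_2D at 8.54, 8.60 and 7.21 CPM. The groups were again fully separated, with an increase of 2.51-fold (adjusted p = 2.45e-11) and 3.09-fold (adjusted p = 8.07e-14).

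Bax, the pore-forming executioner, changed less. It ranged from 34.0 to 43.0 CPM in Cap_L and from 49.2 to 56.6 CPM in Cap_L_2D, a log2 difference of 0.48 (SE 0.07, adjusted p = 9.68e-07). The buccal difference was 0.49 (SE 0.05, adjusted p = 2.13e-10). Each passed the p threshold and stopped just short of the fold limit. The lingual value crossed it without Cap_L library 2 (0.59) or Cap_L_2D library 2 (0.51), and the buccal value crossed it (0.50 to 0.54) without Cap_B library 3 or Cap_B_2D library 1 and under 5 other settings, DESeq2 among them. Of the exon bases of Bax, 12.2% lie under another annotated gene, Gm45808, and reads there were not counted.

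The feedback genes differed by small steps. Ccng1, the cyclin G1 gene, was at 37.5, 37.6 and 36.5 CPM in Cap_L and 57.7, 60.9 and 56.6 CPM in Cap_L_2D, an increase of 1.57-fold (95% interval 1.47 to 1.69). In the buccal part it went from 38.2, 37.4 and 35.4 CPM to 65.6, 62.7 and 58.5 CPM, or 1.66-fold (1.56 to 1.78). Mdm2, which encodes the ubiquitin ligase that degrades p53, ranged from 75.7 to 83.2 CPM in Cap_L against 100 to 106 CPM in Cap_L_2D, and from 75.0 to 79.3 CPM in Cap_B against 98.4 to 105 CPM in Cap_B_2D. These separated groups gave log2 differences of 0.38 (SE 0.05, adjusted p = 1.69e-07) and 0.39 (SE 0.04, adjusted p = 1.19e-10), under the fold limit.

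The remaining CDK inhibitors moved little or could not be tested. Cdkn1b differed by 0.05 on the log2 scale after lingual culture (adjusted p = 0.379) and by -0.05 after buccal culture (adjusted p = 0.294), with 95% intervals from -0.05 to 0.14 and from -0.13 to 0.03. Cdkn2c was 0.37 higher in cultured than fresh lingual part (SE 0.07, adjusted p = 2.88e-05), under the fold limit, and 0.04 higher in the buccal part (adjusted p = 0.597). Another gene, Gm57073, covers 12.7% of the exon bases of Cdkn2c. Cdkn2a had at most 1 count in any cap-stage library, 2, 3 and 15 counts in Cap_L_2D, and 6, 6 and 9 counts in Cap_B_2D. In bell-stage libraries it had 2 to 11 counts. Its 2 products share exons and could not be separated in gene counts.

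**Figure D2:**
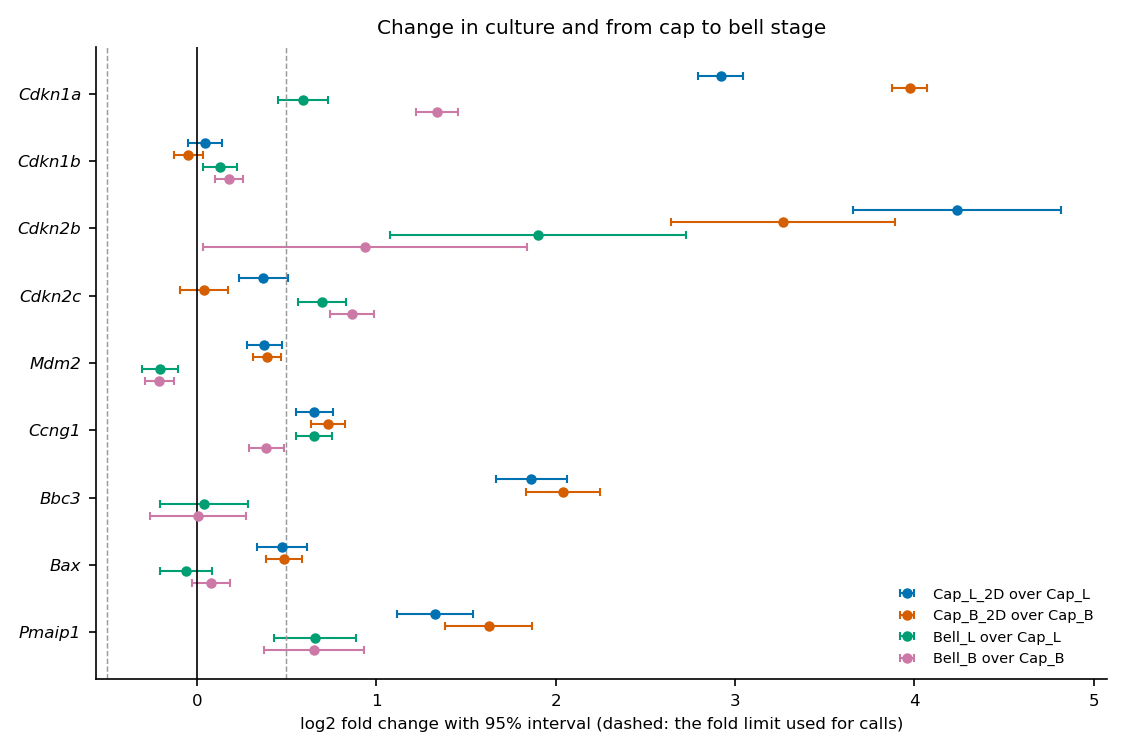
Log2 fold change with its 95% interval for the 9 tested genes in culture (Cap_L_2D over Cap_L, Cap_B_2D over Cap_B) and from cap to bell stage (Bell_L over Cap_L, Bell_B over Cap_B); the dashed lines at -0.5 and 0.5 are the fold limit. Bbc3 lay near 0 from cap to bell stage and at 1.86 and 2.04 in culture.

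Other genes of the pathway were read from lists. Of 25 other p53 target genes, 8 rose and 2 fell after lingual culture, while 10 rose and 3 fell after buccal culture. Of all genes, 19.6% rose and 15.9% fell after lingual culture, and 17.9% rose and 16.6% fell after buccal culture. The median log2 fold changes of the 25 genes were 0.11 and 0.27. The death receptor gene Fas rose 10.8-fold in the lingual and 3.79-fold in the buccal part, and the receptor gene Eda2r rose 5.44-fold and 5.55-fold. Dram1, a gene of autophagy, rose 3.27-fold in the lingual part, and Sesn2, which is also a gene of the integrated stress response, rose 3.79-fold in the buccal part. Those that fell were Psrc1, a spindle gene, on each side (log2 fold change -1.37 and -0.91), Pidd1 in the lingual part (-0.98), and Perp (-1.74) and the polymerase gene Polk (-0.56) in the buccal part. Perp is an epithelial adhesion gene as well as a p53 target, and the summed epithelial markers stood at 362 to 377 CPM in Cap_B against 87.2 to 88.2 CPM in Cap_B_2D. The part of epithelial RNA in the Perp value was not tested. From the cap to the bell stage in vivo, 7 of the 25 genes rose and 1 fell in the lingual part (median 0.15). Of all genes, 14.2% rose and 5.78% fell there. In the buccal part 5 rose and none fell (median 0.05), against 12% and 6.73% of all genes. Fas, Eda2r and Dram1 were among those that rose with stage in the lingual part, but they were not called in the buccal part.

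The transcript of p53 itself, Trp53, did not pass the fold limit on either side of culture. It was at 96.1, 102 and 98.3 CPM in Cap_L and 84.0, 81.2 and 80.2 CPM in Cap_L_2D, a log2 difference of -0.27 (SE 0.04, adjusted p = 7.55e-06), and -0.10 in the buccal part (SE 0.04, adjusted p = 0.0232). Mdm4, the partner of Mdm2 in holding p53 low, fell on each side. It was at 223, 205 and 228 CPM in Cap_L against 143, 147 and 137 CPM in Cap_L_2D, and its log2 fold change was -0.61 (SE 0.05) in the lingual and -0.60 (SE 0.03) in the buccal part. Of the 6 p53 regulators, the family members Trp63 and Trp73 were the only others called in culture, and they fell as well (-1.64 and -1.97 lingual, -1.24 and -3.12 buccal). Trp63 also marks epithelium.

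Of the other CDK inhibitors, Cdkn1c (p57) rose on each side, from 615, 682 and 591 CPM to 1009, 979 and 995 CPM in the lingual part (1.59-fold) and 2.07-fold in the buccal part. Another gene, Gm44732, covers 30.7% of the exon bases of Cdkn1c, and reads there were not counted. Cdkn2d (p19Ink4d) was 0.42 higher on the log2 scale in the lingual and 0.36 higher in the buccal part, under the fold limit. Among 12 proliferation markers, 8 fell after lingual and 3 after buccal culture, and none was called as rising (0 and 1 were higher at an unadjusted p under 0.05). Mki67 fell by 1.24 on the log2 scale in the lingual and by 0.88 in the buccal part, and the mitotic genes Bub1 (-1.17 and -0.71) and Ccnb1 (-1.07 and -0.60) fell alike. The cell-cycle engine itself was split. In the lingual part 4 of 15 cyclins, CDKs and pocket proteins fell, led by Ccna2 (-0.91), E2f2 (-0.64) and Ccnd1 (-0.60), and none rose. In the buccal part Rb1 (1.48), E2f2 (1.05) and Ccnd3 (0.64) rose, while Ccnd1 (-0.80) and Rbl1 (-0.63) fell. At an unadjusted p under 0.05, 3 of the 15 genes were higher in the lingual culture.

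The remaining death genes gave a mixed picture. Of 8 other effectors and BH3-only genes, 3 rose on each side, among them Bmf (1.38 lingual, 0.84 buccal) and Bcl2l11 (0.86 and 0.87), while the effector gene Bok fell (-0.82 and -0.77). Hrk rose in the lingual part (1.05, SE 0.44, adjusted p = 0.0418), and Bid rose in the buccal part (0.59). Of the 4 survival genes, Mcl1 rose in the lingual part (0.71) and Bcl2 fell in the buccal part (-0.84). In the caspase pathway, 1 of 8 genes was called in the lingual part, Diablo, which fell (-0.63), and none of 8 was called by edgeR in the buccal part, where 7 had an unadjusted p under 0.05. Of the exon bases of Diablo, 40.9% lie under other annotated genes, and reads there were not counted.

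Genes of other stress responses rose in the same comparisons. In each part 6 of 8 genes of the integrated stress response rose, Sesn2 of the p53 target list among them, with median log2 fold changes of 1.05 and 2.02. Chac1 rose 24.8-fold and 37.6-fold, Trib3 7.81-fold and 22.4-fold, and Atf3 9.57-fold and 4.65-fold in the lingual and buccal parts. Immediate early genes rose as well, 7 of 7 in the lingual and 4 of 7 in the buccal part, with Fosb (2.88 and 1.36), Ier3 (2.42 and 2.05) and Junb (1.88 and 1.12) leading on the log2 scale. Cell types changed in the same comparisons. All 8 skeletal muscle markers rose on each side, and their sum went from 19.6 to 20.3 CPM in Cap_L to 308 to 328 CPM in Cap_L_2D, and from 237 to 253 CPM in Cap_B to 3948 to 4159 CPM in Cap_B_2D. All 5 macrophage markers rose on each side (137 to 149 CPM in Cap_B_2D against 52.1 to 58.2 CPM in Cap_B), and all 5 erythroid markers fell (median log2 fold change -6.37 and -5.99). All 5 endothelial markers fell in the buccal and 1 in the lingual part. Of 7 epithelial markers, 4 fell and 1 rose in the lingual part, and 6 fell and 1 rose in the buccal part. Of 5 Schwann and glial markers, 4 fell on each side and 1 rose in the lingual part. Among the dental mesenchyme markers, Pdgfra and Col1a1 rose and Msx1 and Lhx6 fell on each side. The part of these cells in the changes of the set was not tested.

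**Figure D3:**
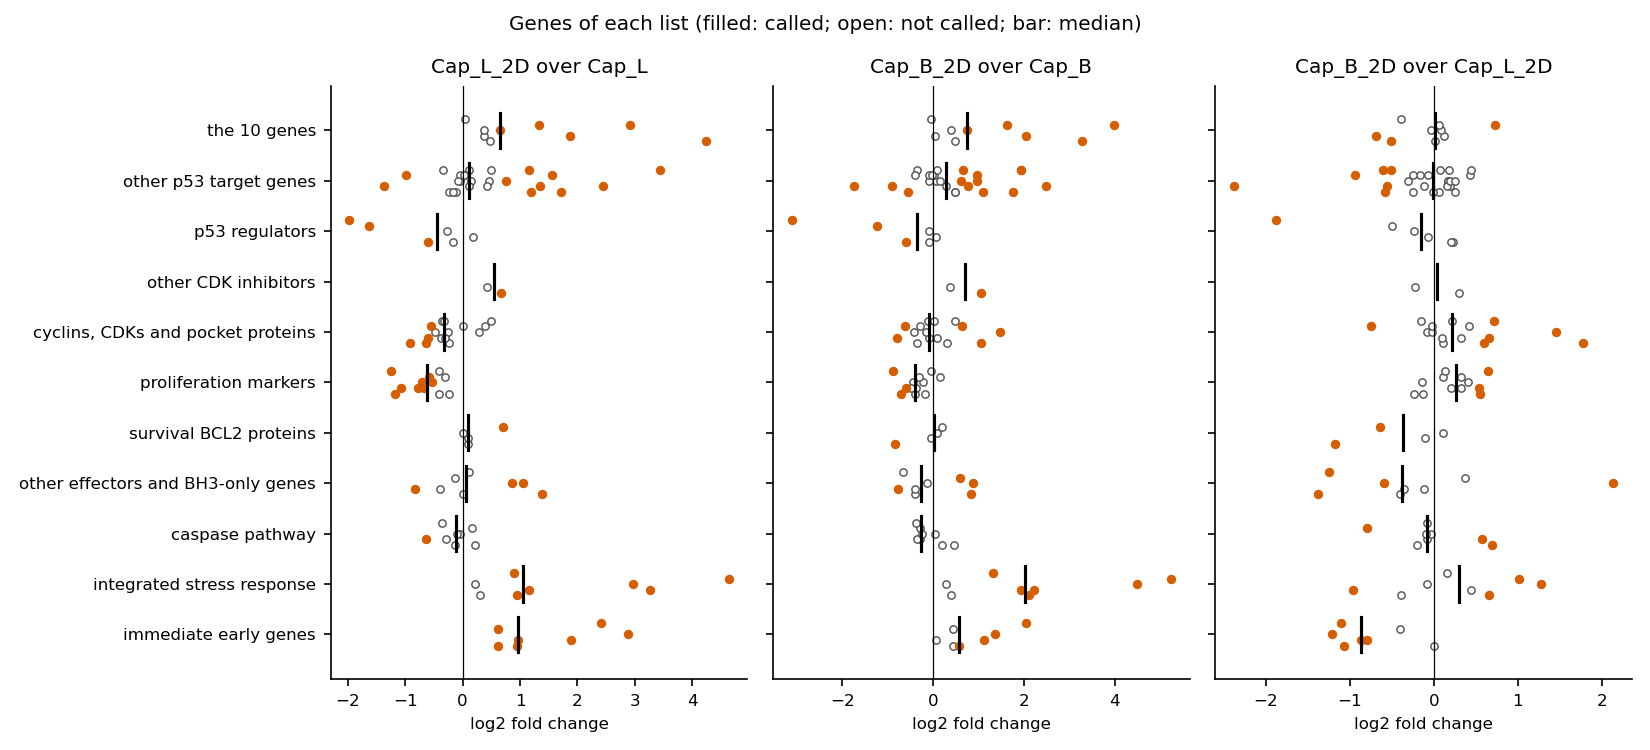
Log2 fold change of every tested gene of the pathway lists in the lingual culture, the buccal culture and between the cultured sides; filled points are called genes, open points are not called, and the bar is the list's median. The integrated stress response lay to the right in each culture panel (medians 1.05 and 2.02), and the set of 10 genes had a median of 0.01 between the cultured sides.

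The comparison of the cultured sides asked whether arrest and death genes differed between Cap_B_2D and Cap_L_2D. Of the 9 tested genes, 1 was higher and 2 were lower in the buccal part, where 25.1% of all genes were called, 12.5% in each direction. Libraries of the sides did not overlap for 4 of the 9, and for 59.1% of all genes. The 3 were CDK inhibitors: Cdkn1a was higher, and Cdkn2b and Cdkn2c were lower. The p53 targets of feedback and death were not called. The median of the 9 log2 differences was 0.01, beside 0.00 for all genes, and DESeq2 also called 3.

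Cdkn1a was 1.65-fold higher in Cap_B_2D (182, 187 and 193 CPM) than in Cap_L_2D (114, 113 and 112 CPM), with a 95% interval of 1.56 to 1.74 and an adjusted p of 1.52e-14. The 3 buccal libraries all lay above the 3 lingual ones. Before culture the order was the other way, since Cap_B was lower than Cap_L by 0.33 on the log2 scale. The increase in culture was therefore larger in the buccal than in the lingual part, by 1.05 on the log2 scale (SE 0.09, adjusted p = 2.84e-11 for the interaction of side with culture). Across the set 2 of 9 genes passed this interaction test, 1 in each direction, where 35.5% of all genes did, 16% with a larger and 19.5% with a smaller change in the buccal part. Cdkn1c, of the same inhibitor family, was 0.30 higher on the log2 scale in Cap_B_2D and had an interaction of 0.38 (SE 0.06, adjusted p = 1.49e-05).

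Cdkn2c, an inhibitor of the CDK partners of D-type cyclins, was at 15.6, 16.1 and 15.3 CPM in Cap_B_2D and 23.9, 27.2 and 24.1 CPM in Cap_L_2D. The groups did not overlap, and the buccal level was 0.622 of the lingual one (95% interval 0.568 to 0.682, adjusted p = 1.21e-09). A lower buccal level was present before culture as well, and the difference widened by 0.34 on the log2 scale (SE 0.10, adjusted p = 0.00731 for the interaction), a call that was lost when all 24 libraries shared a fit (adjusted p = 0.132). Cdkn2b was lower in Cap_B_2D by 0.50 on the log2 scale (SE 0.15, adjusted p = 0.00682), which is at the fold limit. The call ended with at least 10 counts required in every library (-0.50, just under the limit) and in the fit of all libraries (adjusted p = 0.356). It also ended without Cap_L_2D library 1 (-0.49) or library 2 (-0.43) and without Cap_B_2D library 1 (-0.34).

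Cdkn1b, the inhibitor of quiescent cells, was at 66.3, 68.8 and 65.0 CPM in Cap_B_2D and 87.7, 91.4 and 83.3 CPM in Cap_L_2D. The ranges were apart, and the log2 difference of -0.40 (SE 0.04, adjusted p = 2.6e-08) was under the fold limit. A buccal level below the lingual one was measured for Cdkn1b at each of the 3 time points, as described further on.

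For the p53 targets the sides were close. Mdm2 ranged from 98.4 to 105 CPM in Cap_B_2D and from 100 to 106 CPM in Cap_L_2D, and the 95% interval of the buccal over lingual ratio was 0.919 to 1.03. The interval of that ratio was 0.992 to 1.14 for Ccng1 and 0.985 to 1.19 for Bbc3. For Bax it was 0.938 to 1.08 and for Pmaip1 0.915 to 1.19. The libraries of the sides overlapped for all 5 genes, and the 5 intervals lay within 0.915 to 1.19. A p above the threshold does not show that the sides were equal.

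**Figure D4:**
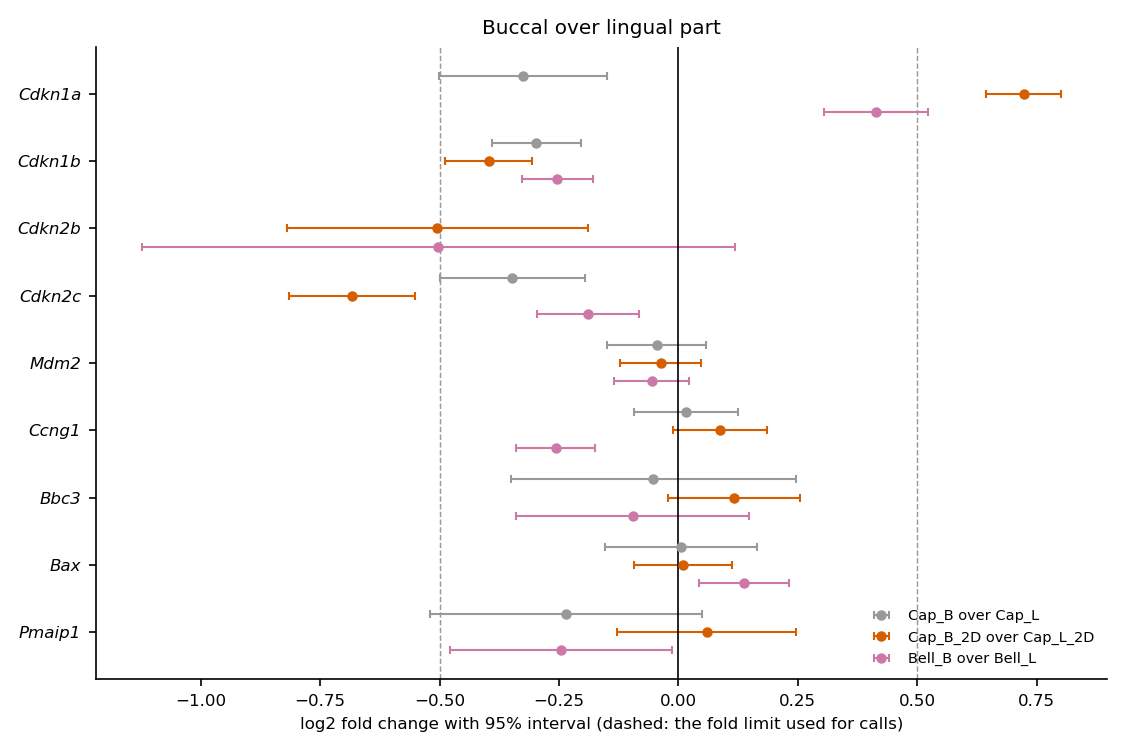
Log2 ratio of the buccal over the lingual part with its 95% interval, at the cap stage, after 2 days of culture and at the bell stage; Cdkn2b had too few counts for a test at the cap stage and Cdkn2a in all comparisons. Cdkn1a lay at -0.33, 0.72 and 0.41, while Cdkn1b lay below 0 each time.

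Among 25 other p53 target genes, none was higher and 6 were lower in the buccal culture by edgeR, and the median difference was -0.01. At an unadjusted p under 0.05 and with no fold limit, 8 were higher and 10 lower. The 3 largest were Perp (-2.38), the anti-proliferative gene Btg2 (-0.94) and Fas (-0.60). Trp53 was lower by 0.23 and Mdm4 higher by 0.23 on the log2 scale, each under the fold limit. Of the other p53 regulators Trp73 was lower (-1.88).

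Of 12 proliferation markers, 3 were higher in the buccal culture, the side with more Cdkn1a. These were Mki67 (0.64), Bub1 (0.54) and Ccnb1 (0.54), and edgeR called none lower. At an unadjusted p under 0.05, 9 were higher and 3 lower. Of 15 cyclins, CDKs and pocket proteins, 5 were higher, led by E2f2 (1.78), Rb1 (1.45) and Ccne1 (0.72), and Cdk6 was lower (-0.75). Among survival genes Bcl2 (-1.18) and Mcl1 (-0.64) were lower in the buccal culture. Of the other effectors and BH3-only genes Hrk was higher (2.13), and Bmf (-1.38), Bik (-1.25) and Bcl2l11 (-0.59) were lower. At the cap stage, before culture, Hrk was already called higher and Bmf and Bcl2l11 lower in the buccal part. The interaction of side with culture was negative for Hrk and Bmf. In the caspase pathway Diablo was higher (0.57) and the initiator gene Casp8 was lower (-0.79).

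Stress genes did not all follow 1 side. Of 8 genes of the integrated stress response, Trib3 (1.28), Chac1 (1.01) and Asns (0.66) were higher and Atf3 (-0.97) was lower in the buccal culture. Of 7 immediate early genes, 5 were lower, led by Fosb (-1.21), Ier3 (-1.10) and Jun (-1.07), and none was called higher by edgeR or at an unadjusted p under 0.05.

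The cultured sides also differed in cell types. All 8 skeletal muscle markers were higher in Cap_B_2D, with a median log2 difference of 3.71, led by Pax7 (3.92), Myf5 (3.88) and Ttn (3.78). Their summed level was 3948 to 4159 CPM against 308 to 328 CPM. Of 7 epithelial markers 5 were lower, and the sum of the 7 was 87.2 to 88.2 CPM in Cap_B_2D against 393 to 426 CPM in Cap_L_2D. All 5 endothelial and 4 of 5 macrophage markers were lower too, with sums of 153 to 159 CPM against 382 to 385 CPM and of 137 to 149 CPM against 207 to 220 CPM. The part of these cells in the side difference of Cdkn1a was not tested. The plot of Cdkn1a against muscle markers gives both values for each library. Cap_B_2D held 3948 to 4159 CPM of muscle markers with 182 to 193 CPM of Cdkn1a, the highest of both. For Cap_L_2D these values were 308 to 328 and 112 to 114 CPM. They were 983 to 1009 and 29.1 to 30.8 CPM for Bell_B, and 115 to 124 and 21.4 to 23.3 CPM for Bell_L. Cap_B held 237 to 253 with 11.3 to 12.0 CPM, and Cap_L 19.6 to 20.3 with 13.1 to 16.0 CPM. These groups differed in culture, stage and side at once.

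**Figure D5:**
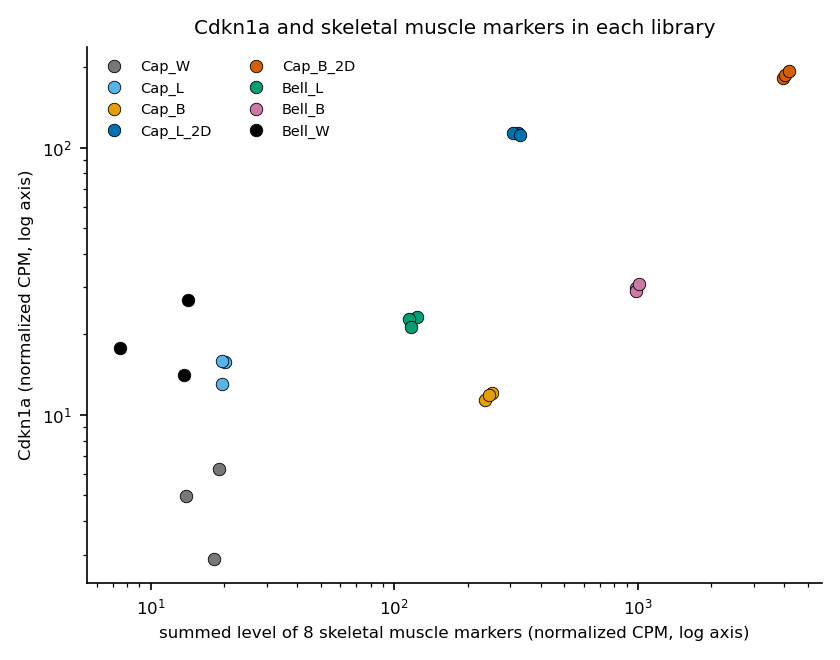
Normalized CPM of Cdkn1a (log axis) against the summed normalized CPM of 8 skeletal muscle markers (log axis) in the 24 libraries, coloured by group. Cap_B_2D lay highest on both axes, and Cap_L_2D was second for Cdkn1a at 112 to 114 CPM.

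Before culture the sides differed by less. At the cap stage none of 8 tested genes was called by edgeR or DESeq2, where 17.5% of all genes were (10.4% higher and 7.1% lower in the buccal part), and 3 had an unadjusted p under 0.05. These were Cdkn1a (-0.33, SE 0.08, adjusted p = 0.00418), Cdkn1b (-0.30, SE 0.04, adjusted p = 2.38e-05) and Cdkn2c (-0.35, SE 0.07, adjusted p = 0.000739), all lower in the buccal part. Libraries of the sides did not overlap for these 3 and Pmaip1, 4 of 8 genes, and for 52.4% of all genes. Cdkn1b was at 69.4, 68.5 and 66.2 CPM in Cap_B against 85.1, 84.9 and 85.0 CPM in Cap_L. The summed muscle markers were at 237 to 253 CPM in Cap_B and 19.6 to 20.3 CPM in Cap_L.

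At the bell stage none of 9 tested genes was called by edgeR or DESeq2, against 12.9% of all genes (6% higher and 6.88% lower), and 6 had an unadjusted p under 0.05. The sides did not overlap for 7 of the 9, and for 45.5% of all genes. Cdkn1a was at 29.7, 29.1 and 30.8 CPM in Bell_B and 23.3, 22.8 and 21.4 CPM in Bell_L, now higher on the buccal side (0.41, SE 0.05, adjusted p = 2.67e-08). The side difference of Cdkn1a changed from cap to bell stage by 0.73 (SE 0.10, adjusted p = 5.96e-07 for the interaction of side with stage). Ccng1 was the other gene of the set to pass that test. It was at 48.5, 49.98 and 47.6 CPM in Bell_B against 55.7, 58.9 and 59.9 CPM in Bell_L, and its side difference changed by -0.28 (SE 0.07, adjusted p = 0.00138, and 0.318 when all 24 libraries shared a fit). These 2 of 9 stand beside 32.5% of all genes that passed, 14.5% with a positive and 18% with a negative value. Cdkn1b (-0.25) and Cdkn2c (-0.19) were again lower on the buccal side, and Bax was higher by 0.14. Pmaip1 and Cdkn2b did not pass the test (adjusted p = 0.0916 and 0.212).

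From the cap to the bell stage in vivo, part of the set rose as well. In the lingual part 5 of 9 genes rose, against 14.2% of all genes rising, 5.78% falling and 20% called in either direction. In the buccal part 3 of 9 rose, against 12% rising, 6.73% falling and 18.7% called. None of the 9 fell by edgeR or DESeq2, and 1 of them, Mdm2, was lower at an unadjusted p under 0.05 on each side. Libraries of the stages did not overlap for 7 of 9 lingual and 6 of 9 buccal values, beside 55.9% and 55.4% of all genes. These comparisons share their cap-stage libraries with the culture comparisons. Cdkn1a rose 1.51-fold in the lingual and 2.53-fold in the buccal part, Cdkn2c 1.62-fold and 1.82-fold, and Pmaip1 1.58-fold and 1.57-fold. For Cdkn1a and Pmaip1 these values were below those of culture, and for Cdkn2c they were above them. Ccng1 rose 1.57-fold in the lingual part and was 0.39 higher on the log2 scale in the buccal part, under the fold limit. Cdkn2b rose 3.74-fold in the lingual part (95% interval 2.11 to 6.62) and missed the threshold in the buccal part (adjusted p = 0.0812). Without Cap_B library 1, which held 10 of the 17 Cap_B counts, its buccal change was called (log2 fold change 1.67, adjusted p = 0.0131). All 8 skeletal muscle and all 5 macrophage markers rose with stage on each side. The muscle sum went from 19.6 to 20.3 CPM in Cap_L to 115 to 124 CPM in Bell_L, and from 237 to 253 CPM in Cap_B to 983 to 1009 CPM in Bell_B. The part of these cells in the stage changes of the set was not tested.

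For the death genes Bbc3 and Bax no difference between the stages passed the test. Bbc3 differed by 0.04 (SE 0.12) in the lingual and 0.01 (SE 0.13) in the buccal part, and Bax by -0.06 (SE 0.07) and 0.08 (SE 0.05), with adjusted p from 0.209 to 0.977. The log2 difference of Mdm2 was -0.21 on each side (lingual SE 0.05, adjusted p = 0.00106, and buccal SE 0.04, adjusted p = 5.65e-05), under the fold limit.

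Set directly beside the bell stage, the cultured parts had higher levels of several, but not all, of the arrest and death genes. In Cap_L_2D over Bell_L 6 of 9 genes were called and all 6 were higher, where 14.4% of all genes were higher, 16.8% lower and 31.2% called. Bbc3 was 3.54-fold higher, Cdkn1a 5.01-fold, Cdkn2b 5.04-fold, Pmaip1 1.59-fold, Bax 1.45-fold and Mdm2 0.58 higher on the log2 scale. In Cap_B_2D over Bell_B 6 of 9 were called, 5 higher and 1 lower, against 31.8% of all genes (15.5% higher and 16.3% lower). Libraries did not overlap for 7 of 9 genes on the lingual side and 9 of 9 on the buccal side, beside 67.3% and 66.8% of all genes. Cdkn1a was 6.21-fold higher, Cdkn2b 5.03-fold, Bbc3 4.10-fold, Pmaip1 1.96-fold and Mdm2 1.52-fold, and Cdkn2c was lower, at 0.565 of its Bell_B level. The Bax call on the lingual side ended without Cap_L_2D library 1 (log2 0.48). The level of Ccng1 after lingual culture was 1.00 of that in Bell_L (95% interval 0.936 to 1.07). Under the fold limit, Cdkn2c was lower in Cap_L_2D than in Bell_L (log2 -0.33), and Cdkn1b was lower in Cap_B_2D than in Bell_B (-0.23). Ccng1 (0.35) and Bax (0.41) were higher in Cap_B_2D than in Bell_B, also under that limit.

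In whole mesenchyme 3 of 8 tested genes rose from Cap_W to Bell_W, against 10.3% of all genes rising, 4.21% falling and 14.5% called. The stages did not overlap for 4 of the 8, and for 36.8% of all genes. Cdkn1a was at 2.89, 4.97 and 6.26 CPM in Cap_W and 14.1, 17.8 and 26.8 CPM in Bell_W, with no overlap (4.08-fold, adjusted p = 0.00709). Bell_W library 3, the highest of these, also held 2070 CPM of epithelial markers against 479 and 569 CPM in the other Bell_W libraries. Without it the log2 fold change of Cdkn1a was 1.73 (adjusted p = 0.0185), and 3 genes were still called. All 5 endothelial and all 5 macrophage markers rose in this comparison too, from sums of 176 to 185 CPM to 337 to 435 CPM and of at most 30.6 CPM to 111 to 137 CPM. The part of other cells in the changes of whole mesenchyme was not tested. Pmaip1 went from 1.34, 0.593 and 0.805 CPM to 3.73, 4.81 and 4.04 CPM (4.63-fold, adjusted p = 0.00523). Cdkn2c went from 10.3, 10.8 and 8.41 CPM to 22.7, 29.2 and 23.8 CPM (2.53-fold, adjusted p = 0.0018). Without Cap_W library 1 the log2 fold changes were 1.78, 2.56 and 1.36, and all 3 calls held (adjusted p = 0.0123, 0.00311 and 0.00468). Bbc3 did not overlap between the groups but missed the threshold (log2 fold change 0.97, adjusted p = 0.0888). It was called by DESeq2 (adjusted p = 0.0448), in the fit of all 24 libraries (0.000681) and without Cap_W library 2 (0.0424). Without Cap_W library 1 it was not called (log2 fold change 0.82, adjusted p = 0.143). Among the tested genes, Cap_W had the lowest group mean for Cdkn1a, Cdkn2c, Ccng1, Bbc3 and Pmaip1, with and without its library 1. For Ccng1 its libraries overlapped those of Cap_B when library 1 was kept.

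Over the 8 groups, Cdkn1a had the widest range of the tested set, 39.7-fold between the highest and the lowest group mean, followed by Cdkn2b at 19.6-fold. Without Cap_W library 1 the range of Cdkn1a was 33.3-fold, that of Pmaip1 11.6-fold and that of Bbc3 7.61-fold. In descending order its group means were 187 (Cap_B_2D), 113 (Cap_L_2D), 29.9 (Bell_B), 22.5 (Bell_L), 19.6 (Bell_W), 14.9 (Cap_L), 11.7 (Cap_B) and 4.71 CPM (Cap_W). Only the libraries of Bell_L with Bell_W and of Bell_W with Cap_L overlapped between neighbours in that order. Whole mesenchyme at the cap stage thus lay below both of its parts. The summed muscle markers of Bell_W (7.49 to 14.2 CPM) also lay below those of Bell_L (115 to 124 CPM) and Bell_B (983 to 1009 CPM). No pairwise test set whole mesenchyme against its parts. Ranges that end in Cap_W therefore also span any difference between whole and divided samples. Pmaip1 spanned 8.91-fold and Bbc3 8.39-fold, each with the cultured groups on top and each with overlap between the cultured sides. Cdkn2c spanned 3.19-fold, with Bell_L highest. Ccng1 (1.76-fold), Mdm2 (1.56-fold), Bax (1.47-fold) and Cdkn1b (1.39-fold) varied little, and every pair of neighbouring groups overlapped for Cdkn1b.

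The genes whose 8 group means followed those of Cdkn1a most closely on the log2 scale were Gm11451, Wsb2, Pde4a, Aebp1 and Synj2, with Pearson's r from 0.990 to 0.997 among 14067 genes. All 5 were highest in Cap_B_2D. For Ccng1 they were Zfat, Ackr4, Galnt4, Snapin and Tbc1d5 (r from 0.965 to 0.984), and for Cdkn1b they were Il16, Dse, Phactr2, Wnt2b and Atp8b1 (r from 0.922 to 0.950). These are likenesses over 8 groups that share culture, stage and cell makeup, given as a description.

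The antisense gene Dino, a noncoding RNA next to Cdkn1a known as a p53-induced transcript, was looked at after its values had been seen. It covers 7.68% of the exon bases of Cdkn1a, and reads in the shared bases were not counted for either gene. Dino had at most 6 counts in any cap-stage library and 16 to 52 counts in the cultured libraries. Its log2 fold change by edgeR was 3.25 in the lingual culture (SE 0.46, adjusted p = 1.12e-06) and 4.06 in the buccal culture (SE 0.45, adjusted p = 1.89e-09). Dino also rose from the cap to the bell stage in the buccal part (2.59, SE 0.58, adjusted p = 0.000395). The lingual stage difference was 0.94 (SE 0.67, adjusted p = 0.258). Between the cultured sides it differed by 0.06 (SE 0.27, adjusted p = 0.877), where Cdkn1a differed by 0.72. Without strand in the counting, reads of the gene and its antisense partner cannot be told apart.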

How the data were processed

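RNA of 24 libraries (8 groups of 3) was measured by paired-end RNA sequencing. The deposited values are counts of read pairs per gene, which the authors made with featureCounts (version 2.0.0 per the file header, Subread 2.0.3 per the submitters' processing notes) on exons of the Ensembl annotation of GRCm39, with no strand, multi-mapping or multi-overlap option. The sources name different trimmers, aligners and library kits (Trimmomatic and Bowtie, or Cutadapt and STAR), so those steps are unsettled. The file also held an exon length per gene, used for levels per kilobase.

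Genes were named by ID from GENCODE vM39 (56017 of 56748). A second gene ID with the symbol Ddit3 was set aside. Counts were tested with edgeR 4.0.16 (TMM normalization, filterByExpr, quasi-likelihood F-test) in R 4.3.3, with Benjamini-Hochberg adjustment over all genes tested. Standard errors were the absolute log2 fold change divided by the square root of F. The cultured sides, the sides at each stage and whole mesenchyme were each fitted on their 6 libraries, culture and stage within a side on 9, interactions on 12, and the test over groups on 24. Called genes had an adjusted p under 0.05 and, except for interactions and the test over groups, an absolute log2 fold change over 0.5. Alternatives were DESeq2 1.42.0, RLE scaling, other filters, fold limits and fits, the replicate number as a block, and leaving out each library. The steps were tested on simulated data.

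The p53 element was searched in the GRCm39 genome sequence. Libraries held 20581720 to 39266497 counts, and 3 counts in a library, the limit that a count of 0 allows, correspond to 0.0764 to 0.146 CPM. These limits cover counting error only.

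Named beside the 10 genes were Trp53, Mdm4, Cdkn1c and Cdkn2d, from each list the called genes with the largest changes (up to 3 per direction), and the 5 genes most like Cdkn1a, Ccng1 and Cdkn1b among those with an average log2 CPM of at least 2. The 10 genes and the lists were chosen with earlier results of these data known. Some genes of the lists are not reported here.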

Additional observations from a re-analysis of the deposited data

Results flagged for a closer look

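The tests of a difference between differences singled out 4 results. The change of Cdkn1a in culture was larger in the buccal than in the lingual part by 1.05 on the log2 scale (edgeR, adjusted p = 2.84e-11). That of Cdkn2c was smaller in the buccal part (-0.34, adjusted p = 0.00731). From the cap to the bell stage the buccal over lingual ratio of Cdkn1a changed by 0.73 (adjusted p = 5.96e-07) and that of Ccng1 by -0.28 (adjusted p = 0.00138). Such differences were common, at 35.5% of all genes for culture and 32.5% for stage. Skeletal muscle markers moved on both sides. Their sum was 237 to 253 CPM in Cap_B, 3948 to 4159 CPM in Cap_B_2D and 983 to 1009 CPM in Bell_B. On the lingual side it was 19.6 to 20.3 CPM in Cap_L, 308 to 328 CPM in Cap_L_2D and 115 to 124 CPM in Bell_L. Of the 8 markers, 1 passed the interaction of side with culture with a positive and 5 with a negative value (median -0.48). For side with stage 7 passed, all negative (median -1.34). The part of muscle cells in these results was not tested.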

How the results depend on the processing

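Of 1640 values of single genes under the alternatives, 1563 kept their direction and their side of the threshold. The 55 that changed sign concerned 16 small differences, at most 0.12 on the log2 scale, none with an adjusted p under 0.05 in either fit. With a log2 limit of 1, the called genes of the set fell to 0 between the cultured sides, 1 for stage in each part, and 3 for each culture against the bell stage. With no fold limit they were 8 in lingual culture, 6 for buccal stage, 3 between sides at the cap and 5 at the bell stage. With all 24 libraries in a fit they were 1 for each interaction and 5 for stage in whole mesenchyme, and all genes called were 4048, 2581 and 5887 (7842, 7137 and 3037 otherwise). The cause was not tested. Over all genes, a limit of 1 or none gave 2584 or 11569 calls between the cultured sides (5315), 3510 or 14126 in lingual culture (7593), 3818 or 14768 in buccal culture (7598), 2008 or 10725 for lingual stage (4290), 1810 or 10557 for buccal stage (4114), 2928 or 13140 and 3391 or 14449 for culture against the bell stage (6686 and 6988), 1762 or 8746 for cap sides (3611) and 1099 or 7846 for bell sides (2729). In whole mesenchyme a limit of 1 left 1861, and leaving out Cap_W library 3 or Bell_W library 2 left 1758 or 1832.

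Sign changes outside the left-out libraries were as follows. With no filter on low counts, cap-stage sides gave -0.011 for Ccng1 and -0.021 for Bax, and the stage interaction gave 0.021 for Mdm2 and 0.021 for Pmaip1. Without the 100 most abundant genes that interaction was 0.014 for Mdm2 and 0.013 for Pmaip1. With all libraries in a fit the values were -0.0083 (Ccng1) and -0.017 (Bax) for cap-stage sides, and 0.014 (Mdm2) and 0.018 (Pmaip1) for the interaction. Requiring 10 counts in every library gave -0.0043 for Ccng1 in Cap_L_2D over Bell_L.

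Leaving out 1 library at a time gave these ranges on the log2 scale. Bax ranged from -0.030 to 0.063 between cultured sides, -0.13 to 0.052 for lingual stage, -0.061 to 0.11 between cap sides and -0.12 to 0.069 for the culture interaction. Bbc3 ranged from -0.059 to 0.16 and -0.15 to 0.13 for lingual and buccal stage, -0.15 to 0.10 and -0.21 to 0.028 between cap and bell sides and -0.19 to 0.074 for the stage interaction. Ccng1 ranged from -0.030 to 0.028 for Cap_L_2D over Bell_L and -0.0083 to 0.045 between cap sides, and Cdkn2c from -0.015 to 0.10 in buccal culture. Mdm2 ranged from -0.024 to 0.050 and -0.048 to 0.040 for the interactions of culture and stage, Pmaip1 from -0.10 to 0.058 for that of stage, and Cdkn1b from -0.21 to 0.059 in whole mesenchyme.

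Correlations of same-numbered libraries ran from -0.08 to 0.09, and the main fits used no pairing. Such values cannot exclude pools of germs shared between groups, since the 3 libraries of a group may be technical. The replicate block gave 2 called genes of the set between the cultured sides in place of 3, without Cdkn2b (-0.49), and left every other count of called genes of the set as it was. Low counts limit Cdkn2a and the cap-stage values of Cdkn2b.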
